A study of Homo sapiens with 6 samples.

Results

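The genes that trap glucose as glucose 6-phosphate and those that release it again were followed in an RFX6 knockout. The set held the hexokinases HK1, HK2, HK3 and HKDC1, the glucokinase regulator GCKR, and the gluconeogenic enzymes G6PC3, PCK1, PCK2 and FBP1. They were taken by symbol, and all 9 were found among the 16720 named rows of the count table. Bulk RNA was sequenced from cells labelled Hep3B, which is an established human line from a hepatocellular carcinoma, in 3 libraries with a control guide (sgControl, genotype WT) and 3 libraries with RFX6 knocked out (sgRFX6). Both groups carried a lentiviral Cas9 and guide vector by the study's methods, and the knockout cells were expanded from single cells after puromycin selection. How many clones the sgRFX6 libraries represent is not given in the sources used here, so an effect of the knockout and a property of a clone cannot be told apart. The columns name a single RFX6 guide, sg3, for the knockout. The study's methods state in general that experiments were repeated independently, but no source says so of these libraries or ties them to separate cultures, so the p-values measure only the spread between these libraries.

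Hexokinases add a phosphate to glucose in the first step of glycolysis, which keeps the sugar inside the cell. Hepatocytes normally use glucokinase for this step, with GCKR as its inhibitory partner in the nucleus, whereas liver tumours typically switch to the high-affinity hexokinases. Gluconeogenesis runs the other way through PCK1 or PCK2 (phosphoenolpyruvate carboxykinase of the cytosol or the mitochondrion), fructose bisphosphatase (FBP1) and glucose 6-phosphatase, of which G6PC3 is the widely expressed catalytic subunit. HKDC1 is the most recently described member of the hexokinase family and lies beside HK1, in the same orientation.

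The libraries held 16730386 to 25070793 counts. RFX6 itself was counted 117, 144 and 170 times with the control guide and 69, 59 and 77 times in the knockout, with a log2 fold change of -0.82 (SE 0.26) and an adjusted p of 0.142 by the edgeR quasi-likelihood F test. It was called with the GC correction described below (-0.85, adjusted p = 0.049 from edgeR), by limma-voom with sample quality weights (-0.96, adjusted p = 0.00274) and without sgControl library 2 and sgRFX6 library 3 (-0.87, adjusted p = 0.0345 from edgeR), and was lower in sgRFX6 under all 18 alternatives. The transcript was still present, at a lower level in each sgRFX6 library, and its count does not measure whether the protein was lost. The study reports that it checked the knockout by Western blotting and real-time PCR. Its text does not tie that check to the libraries used here. The liver markers were low for a hepatocyte-derived line, so the label Hep3B is in doubt from these counts, although the study's methods say that its lines were bought with certificates of identity. Of 15 hepatocyte markers, 11 stayed under 50 CPM (the count as a rate of the TMM-scaled library size) in every library. ALB was at 12.9 to 32.1 CPM and TTR under 1 CPM throughout, while the liver factor HNF4A was at 109 to 161 CPM. GPC3, an oncofetal marker of liver tumours, was at 0.337 to 1.88 CPM, and the intestinal transcription factor CDX2 at 17.3 to 58.3 CPM with overlapping groups. The intestinal keratin KRT20 was at 245, 302 and 198 CPM in sgControl and 799.5, 658 and 918 CPM in sgRFX6 (log2 fold change 1.67, SE 0.22, adjusted p = 0.0043 from edgeR). KRT20 thus moved with the group, as HK1 and HKDC1 did, with no overlap. GPC3, CDX2 and KRT20 were chosen after their values were seen. The summed level of the hepatocyte list was 503 to 586 CPM in sgControl and 391 to 447 CPM in sgRFX6, with AFP called higher and FGA and FGB called lower. Of the 5 fibroblast markers tested (8 listed), 3 were called lower in sgRFX6 (COL1A1, COL1A2 and PDGFRA), with a summed level of 28.0 to 34.7 against 21.4 to 56.4 CPM. Of the 6 immune markers tested (8 listed), 1 (ITGAM) was called higher (sums 76.8 to 164 against 71.2 to 112 CPM). Only 1 of 6 endothelial markers could be tested, and it was not called (sums 11.8 to 13.8 against 13.5 to 19.7 CPM). CD3E, a T cell marker, and KDR, an endothelial marker, were at or under 3 counts in every library. Other members of these lists were not: CD68 was at 61.0 to 156 CPM and PECAM1 at 11.4 to 19.3 CPM. These 2 genes made up most of the immune and endothelial sums. The part of these differences in the results below was not tested.

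HK1 and HKDC1 lie next to each other on chromosome 10 of GRCh38. HKDC1 spans 69220303 to 69267559 and HK1 spans 69269984 to 69401884, both on the forward strand, with 2424 bases between the annotated genes. The sequences 5′ of their annotated starts are shown because these neighbours gave the clearest contrast of the set. They are the 250 bases before the only HKDC1 start and before the most upstream of 7 HK1 starts in RefSeq (GRCh38.p14), at chr10:69220082-69220331 and chr10:69269750-69269999. Which of the HK1 starts these cells used cannot be read from counts per gene.
HKDC1: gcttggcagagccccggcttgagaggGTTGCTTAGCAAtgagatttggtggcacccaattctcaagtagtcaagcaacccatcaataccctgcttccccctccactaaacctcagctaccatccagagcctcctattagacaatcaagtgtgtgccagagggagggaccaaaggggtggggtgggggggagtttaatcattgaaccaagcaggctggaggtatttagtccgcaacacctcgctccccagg
HK1: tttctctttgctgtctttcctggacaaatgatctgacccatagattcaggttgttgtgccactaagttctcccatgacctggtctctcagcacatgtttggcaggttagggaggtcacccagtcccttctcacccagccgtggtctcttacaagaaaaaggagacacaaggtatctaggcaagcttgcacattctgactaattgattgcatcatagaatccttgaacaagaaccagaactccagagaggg
The RFX family binds the X-box, an inverted repeat. Searched on both strands as GTNNCC and GNAAC with 3 free bases between them, it was found in none of the windows of 8 members (PCK1 is not among them) and in 1.98% of 35116 promoter windows of the same length. Its half-site GTTGCC was found in 1 of 3 G6PC3 windows and in 10.2% of all windows. The capitals in the HKDC1 sequence mark a match to GTTGC and TAGCAA with 1 free base between them, a pattern that was written down only after this sequence had been read. Neither the X-box nor the half-site was found in the HKDC1 window. The marked pattern starts 224 bases before the HKDC1 start. Its match there was certain, so its count over all windows (28 of 35116, 0.0797%) is no measure of rarity for HKDC1. These are matches of letters, and no binding data were analysed here.

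HK1 was lower and HKDC1 higher in every sgRFX6 library. HK1, the broadly expressed hexokinase that docks on mitochondria, gave 5256, 7473 and 6732 reads in the control group and 3952, 2849 and 2933 in the knockout. On the CPM scale this was 253, 302.5 and 290.5 against 196, 179 and 133, with means of 282 ± 25.8 and 169 ± 32.6 (SD, n = 3 each). The lowest sgControl library stood above the highest sgRFX6 library. The log2 fold change was -0.74 (SE 0.19), a level 1.67-fold higher in sgControl, with an adjusted p of 0.0792 from edgeR over all genes.
HKDC1 gave 3639, 3809 and 4088 reads in the control group and 5446, 4574 and 5017 in the knockout. Its CPM values were 175, 154 and 176 against 270.4, 287 and 228, with means of 169 ± 12.5 and 262 ± 30.7 (SD, n = 3 each). Here the groups were also apart, in the opposite direction. The log2 fold change was 0.63 (SE 0.16), 1.55-fold higher in sgRFX6, with an adjusted p of 0.0794 from edgeR. The two-sided exact permutation test of either gene gave p = 0.1, the smallest that 3 libraries against 3 allow.

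**Figure D1:**
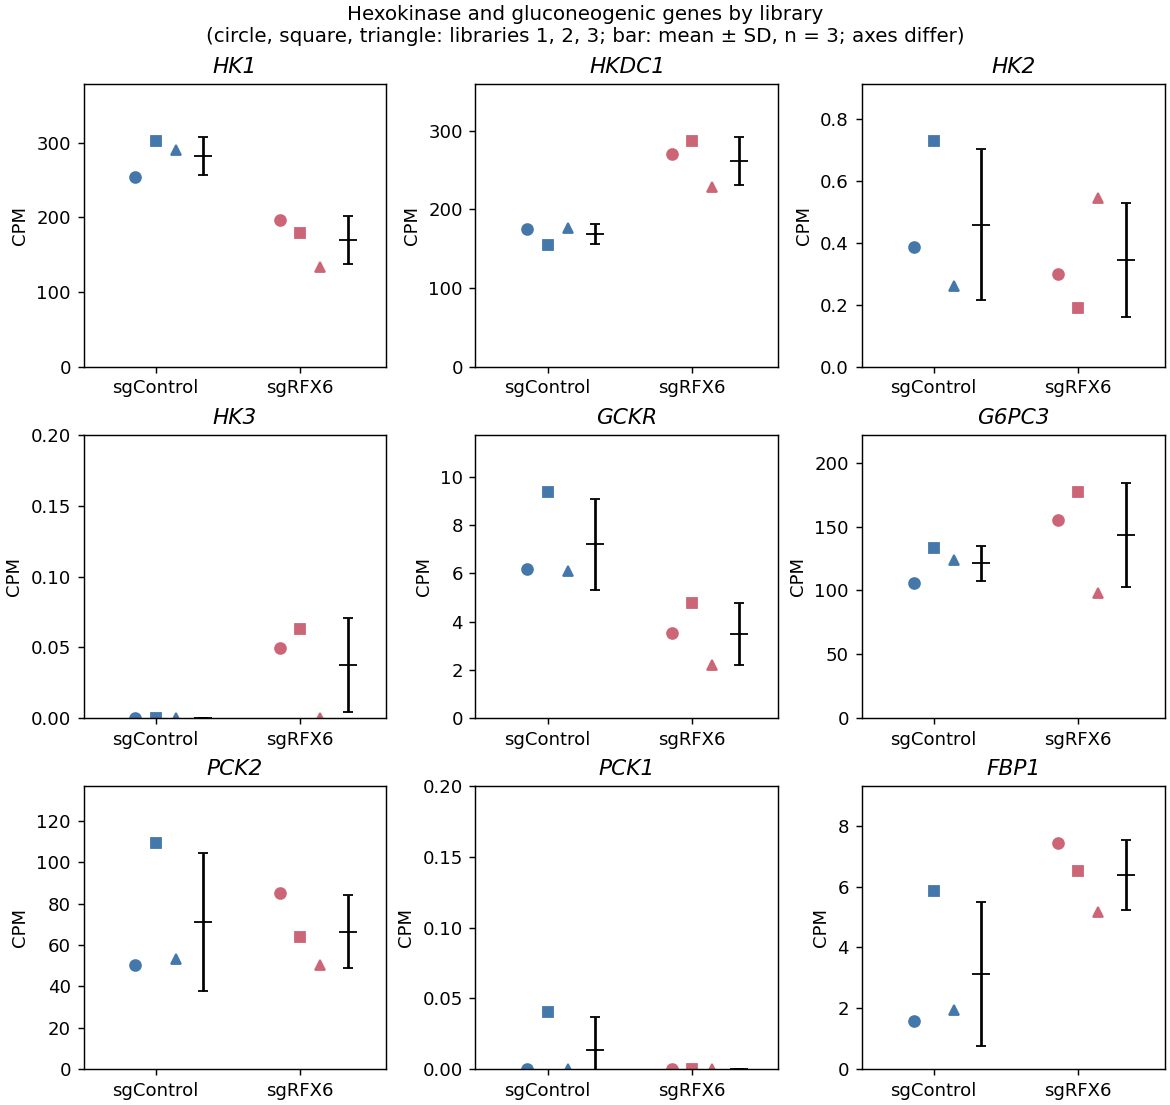
CPM (vertical axis, linear, a separate scale for each gene) of the 9 genes in the 3 sgControl (blue) and 3 sgRFX6 (red) libraries; circles, squares and triangles are libraries 1, 2 and 3, and black bars give the mean ± SD. HK1 and GCKR lie lower and HKDC1 higher in all sgRFX6 libraries, FBP1 is split by sgControl library 2, and HK2, HK3 and PCK1 lie under 1 CPM.

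None of the 6 members that passed the filter on low counts was called by edgeR, against 3.74% of the 12839 genes tested (1.92% called higher and 1.81% lower). At an unadjusted p under 0.05 there were 3 of 6 (HK1, HKDC1 and GCKR), against 15.6% of all genes, and the same 3 members had groups that did not overlap, against 23.1% of all genes. Whether HK1 and HKDC1 were called differed between methods. DESeq2 called both (adjusted p = 0.0236 and 0.0282; 6.44% of all genes called). Limma-voom with sample quality weights called all 6 members (31.1% of all genes called), with adjusted p-values of 0.00205 for HK1 and 0.000408 for HKDC1. The GC content of a gene was related to its deviation in a library, by a Spearman coefficient over genes that ran from -0.749 in sgRFX6 library 3 to 0.542 in sgRFX6 library 2. With that trend removed, edgeR gave HK1 -0.74 (adjusted p = 0.00583) and HKDC1 0.63 (adjusted p = 0.0124), and called 3 of the 6 members where 10.8% of all genes were called. HK1 and HKDC1 have nearly the same GC content, 53.0% and 53.3%.

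A ratio of the 2 neighbours within a library does not depend on how libraries are scaled. HK1 reads outnumbered HKDC1 reads by 1.44, 1.96 and 1.65 times in the sgControl libraries. In the sgRFX6 libraries the ratio was 0.726, 0.623 and 0.585, so that HKDC1 reads were the more numerous in each. Expressed per kilobase of annotated exon, the ratio of HK1 to HKDC1 was 1.14 ± 0.176 in sgControl and 0.436 ± 0.0494 in sgRFX6 (SD, n = 3 each). HKDC1 made up 50.5%, 42.9% and 47.3% of the per-length hexokinase level in sgControl, against 67.0%, 70.3% and 71.6% in sgRFX6. The share depended on the length used: with the longest annotated transcript it was 39.4% against 62.7%, in place of 46.9% against 69.6%. A change of length scales the HK1 to HKDC1 ratio by the same factor in every library. It could therefore not change the order of the libraries. That every sgRFX6 library held a larger HKDC1 share than any sgControl library follows from the read ratios above and is not a separate result. Summed over the 4 hexokinases, the level per kilobase was 84.5 ± 3.09 in sgControl and 88.5 ± 11.9 in sgRFX6 (SD, n = 3 each). The sgRFX6 sums (94.7, 95.9 and 74.7) lay on both sides of the sgControl range (81.4 to 87.6). With the longest annotated transcript the sums were 116.3 ± 4.94 in sgControl and 113.4 ± 15.8 in sgRFX6 (SD, n = 3 each). The direction of the difference in means thus depended on the length used.

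**Figure D2:**
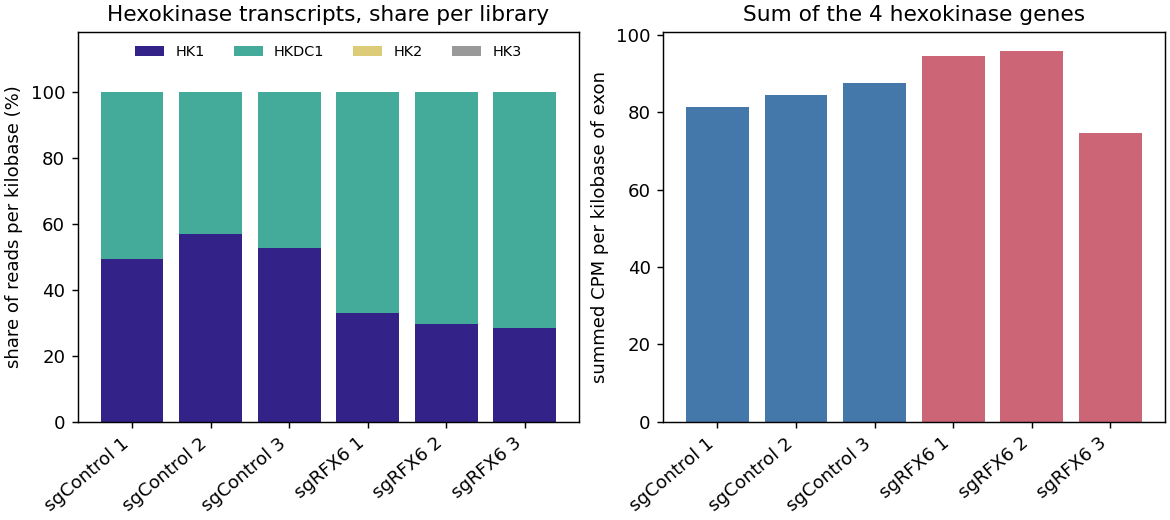
Left, the share (%) of HK1, HKDC1, HK2 and HK3 in the hexokinase reads per kilobase of exon of each library; right, their summed CPM per kilobase in the same libraries (blue sgControl, red sgRFX6, 1 bar per library). HKDC1 takes 42.9% to 50.5% in sgControl and 67.0% to 71.6% in sgRFX6. The sums run from 81.4 to 87.6 in sgControl and from 74.7 to 95.9 in sgRFX6.

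The hexokinase transcripts share only short runs of identical sequence with each other. The longest run of bases shared by any HK1 and HKDC1 transcript in GENCODE 29 was 23 bases, and over all pairs of the 4 genes it was 30 bases (HK1 with HK2). Of all stretches of 50 bases in HK1 transcripts, 0.542% also occur in transcripts of other genes. For HKDC1 it was 2.28%, all in the antisense gene AL596223.2, which is not a row of the table. Also on the strand opposite a member lie AL596223.1 (HKDC1, no exons overlapping), RPS15AP28 (HK1), AC019069.1 (HK2) and UNC5A (HK3). Whether the counting used the strand is not given in the sources used here.
The other genes around HK1 and HKDC1 had values on both sides of 0, more of them below it. The 50 nearest neighbours of the pair among the tested genes centred on a log2 fold change of -0.12 (median), with 14 above and 36 below 0. Of all 12839 genes tested, 6765 lay above 0 and 6074 below. Among the 50 neighbours 2 were called, SRGN (-1.53, adjusted p = 0.018 from edgeR) and CHST3 (-1.54, adjusted p = 0.00329 from edgeR), against 3.74% of all genes tested. TACR2 and UNC5B had a value at or above that of HKDC1, and TET1 (-1.72), SRGN, CHST3 and SPOCK2 (-2.26) one at or below that of HK1. These genes, other than TACR2, were named after their values were seen. The nearest tested gene before HKDC1 was SUPV3L1 (log2 fold change -0.23, SE 0.17, adjusted p = 0.604 from edgeR). The nearest one after HK1 was TACR2 (0.64, SE 0.46, adjusted p = 0.589 from edgeR), at no more than 1.04 CPM in any library. With the regional median removed, edgeR gave HKDC1 0.75 (adjusted p = 0.0468) and HK1 -0.62 (adjusted p = 0.159).

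**Figure D3:**
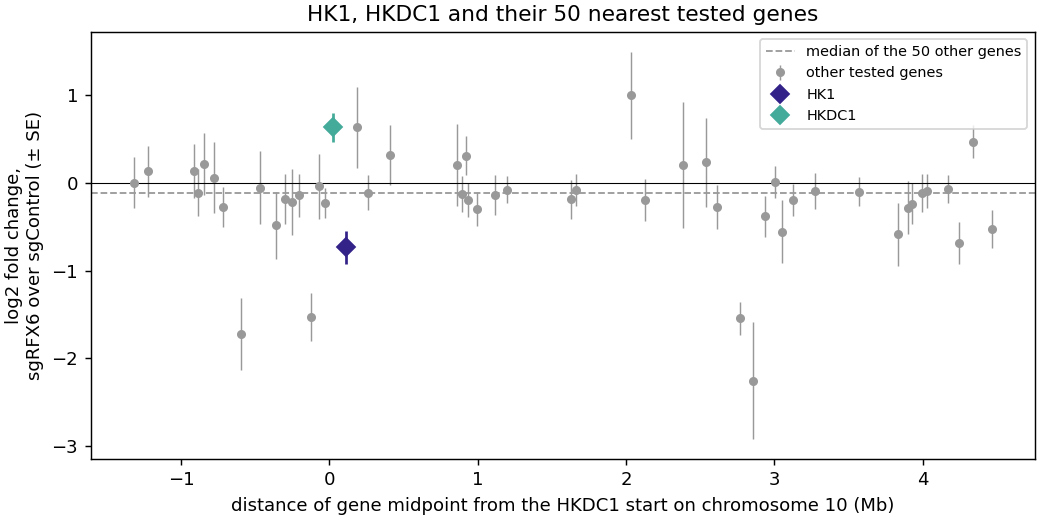
Log2 fold change of sgRFX6 over sgControl (± SE from edgeR) of HK1, HKDC1 and their 50 nearest tested genes on chromosome 10, against the distance of each gene's midpoint from the HKDC1 start in Mb. HKDC1 (0.63) and HK1 (-0.74) lie on opposite sides of the median of the 50 genes (dashed line, -0.12).

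The other 2 hexokinases were barely counted. HK2, the isoform typically induced in liver tumours, gave 8, 18 and 6 reads with the control guide and 6, 3 and 12 in the knockout, which overlap (two-sided exact permutation test of CPM, p = 0.6). It made up at most 0.142% of the per-length hexokinase level of a library. Its near copy HK2P1, a pseudogene, shares 8.16% of its stretches of 50 bases. HK3, a hexokinase mainly of blood cells, was at 0 in all control libraries and at 1, 1 and 0 reads in the knockout, at or under the floor of 3 counts (0.121 to 0.188 CPM). No difference in HK2 or HK3 was detectable at this depth. Glucokinase itself is not a row of the table and was not analysed here.

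GCKR, which binds and inhibits glucokinase, was lower in every sgRFX6 library. It gave 128, 232 and 141 reads with the control guide and 71, 76 and 48 in the knockout, or 6.17, 9.39 and 6.08 against 3.53, 4.77 and 2.18 CPM. The means were 7.21 ± 1.89 and 3.49 ± 1.30 CPM (SD, n = 3 each). The log2 fold change was -1.05 (SE 0.35), a level 2.08-fold higher in sgControl, with an adjusted p of 0.169 from edgeR. It was called with the GC trend removed (log2 fold change -1.07, adjusted p = 0.0401 from edgeR) and by limma-voom (-0.76, adjusted p = 0.0137). It was lower under all 18 alternatives, between -1.34 (without sgRFX6 library 2) and -0.57 (without sgControl library 2 and sgRFX6 library 3, adjusted p = 0.123 from edgeR). GCKR lies on chromosome 2 from 27496842 to 27523684, and the median log2 fold change of its 50 nearest tested neighbours was -0.22.

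Among the gluconeogenic enzymes, FBP1 differed most between the groups, and 1 library decided its value. FBP1, which removes a phosphate from fructose 1,6-bisphosphate, gave 33, 145 and 45 reads with the control guide and 150, 104 and 114 in the knockout. These were 1.59, 5.87 and 1.94 against 7.45, 6.53 and 5.18 CPM, with means of 3.13 ± 2.38 and 6.39 ± 1.14 (SD, n = 3 each). sgControl library 2 lay within the range of the sgRFX6 libraries, and the other 2 sgControl libraries lay below it. The log2 fold change was 1.02 (SE 0.48, adjusted p = 0.369 from edgeR). Without sgControl library 2 it was 1.85 (SE 0.30, adjusted p = 0.0284 from edgeR), and without sgControl library 1 it was 0.70 (adjusted p = 0.625 from edgeR). sgControl library 2 and sgRFX6 library 3 had the lowest sample quality weights in limma-voom, 0.292 and 0.168 against 1.08 to 3.80 in the others. Without both, edgeR gave FBP1 1.98 (adjusted p = 0.00162) and called 5 of the 6 members, where 25.2% of all genes were called. FBP1 lies on chromosome 9 from 94603133 to 94640249 on the reverse strand, and 13.4% of its stretches of 50 bases also lie in the antisense gene PCAT7.

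The mitochondrial and the cytosolic carboxykinase were far apart in level. PCK2, the mitochondrial enzyme, gave 1040, 2706 and 1233 reads with the control guide and 1719, 1015 and 1107 in the knockout. PCK1, the hormone-controlled cytosolic enzyme of the fasting liver, had a single count in sgControl library 2 and 0 in the other 5 libraries, at or under the floor. The log2 fold change of PCK2 was -0.09 (SE 0.33, adjusted p = 0.944 from edgeR), and its libraries overlapped, with 110 CPM in sgControl library 2 and 50.1 to 85.3 CPM elsewhere. Its direction was not stable: it was 0.36 without sgControl library 2, 0.07 without sgRFX6 library 3 and 0.53 without both (adjusted p = 0.0367 from edgeR for the last). PCK2 has the highest GC content of the 6 members tested (61.6%), and sgControl library 2 had a Spearman coefficient of 0.366 with GC content. The coefficient was higher in sgRFX6 libraries 1 and 2 (0.433 and 0.542), where PCK2 was at 85.3 and 63.8 CPM. The part of GC content in the level of sgControl library 2 was not tested. With the GC trend removed, the log2 fold change of PCK2 was -0.05 (adjusted p = 0.926 from edgeR). PCK2 overlaps NRL on the opposite strand, but no exons of the pair overlap, and NRL had at most 2.45 CPM.

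G6PC3, a phosphatase that acts on glucose 6-phosphate in the endoplasmic reticulum, gave 2203, 3299 and 2869 reads with the control guide and 3125, 2826 and 2166 in the knockout. Its means were 121 ± 13.9 and 144 ± 40.8 CPM (SD, n = 3 each), and sgRFX6 library 3 was the lowest of all 6. The log2 fold change was 0.25 (SE 0.23, adjusted p = 0.706 from edgeR). It was 0.46 without sgRFX6 library 3, 0.07 without sgRFX6 library 2, and 0.53 without sgControl library 2 and sgRFX6 library 3 (adjusted p = 0.0174 from edgeR). The liver subunit G6PC was at 2, 3 and 2 reads with the control guide and 0 throughout the knockout, all at or under the floor.

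Per kilobase of exon, the order of the members changed at the top. In sgControl HK1 came first with 44.8 ± 4.09 CPM per kilobase, followed by HKDC1 (39.6 ± 2.94), G6PC3 (26.6 ± 3.06), PCK2 (16.9 ± 7.99), GCKR (2.29 ± 0.600) and FBP1 (1.80 ± 1.37). The ranges of HK1 and HKDC1, of G6PC3 and PCK2, and of GCKR and FBP1 overlapped. How close HK1 and HKDC1 stood depended on the length used. The HK1 to HKDC1 ratio in sgControl libraries 1, 2 and 3 was 0.977, 1.33 and 1.11 with all annotated exons. It was 1.33, 1.81 and 1.52 with the longest annotated transcript. In sgRFX6 the order was HKDC1 (61.5 ± 7.20), G6PC3 (31.6 ± 8.97), HK1 (26.9 ± 5.18), PCK2 (15.9 ± 4.22), FBP1 (3.67 ± 0.657) and GCKR (1.11 ± 0.413), where only G6PC3 and HK1 overlapped among these neighbours. HK2, HK3 and PCK1 stayed at or under 0.120 CPM per kilobase in both groups.

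The calls in the pathways around these genes are to be read beside the shares over all genes tested. Of those, 3.74% were called and 15.6% had an unadjusted p under 0.05 from edgeR. Of 15 other genes of glucose phosphorylation and gluconeogenesis that were tested, none was called and 1, the triose kinase TKFC, had an unadjusted p under 0.05, with a median log2 fold change of 0.02, equal to that of all tested genes (0.02). They include the glucose 6-phosphate transporter SLC37A4, which G6PC3 and G6PC depend on (0.41, SE 0.20, adjusted p = 0.391 from edgeR), pyruvate carboxylase PC (-0.05, adjusted p = 0.963 from edgeR) and the ADP-dependent glucokinase ADPGK (0.02, adjusted p = 0.977 from edgeR). Of 22 glycolysis genes, none was called and 3 had an unadjusted p under 0.05 (median 0.07). They were phosphoglycerate kinase PGK1 (0.66, adjusted p = 0.0774, with a median of 0.44 for its 50 nearest tested genes on chromosome X), phosphoglycerate mutase PGAM1 (-0.50, adjusted p = 0.167) and the muscle-type enolase ENO3 (-1.30, adjusted p = 0.129, all from edgeR). The 24 genes of the glycogen and pentose phosphate branches also gave no call and 3 such p-values (median 0.04), of which the smallest was that of the brain-type glycogen phosphorylase PYGB (0.86, adjusted p = 0.0839 from edgeR), before PHKA1 and TALDO1.
Of 29 transcriptional and hormonal regulators, 1 was called higher and none lower (median -0.04). It was NR1H4, the bile acid receptor FXR, at 0.193, 0.202 and 0.130 CPM in sgControl and 1.09, 0.754 and 0.999 CPM in sgRFX6 (log2 fold change 2.41, SE 0.44, adjusted p = 0.0203 from edgeR). NR1H4 had only 4, 5 and 3 reads in sgControl, at or just above the floor of 3 counts, and 22, 12 and 22 in sgRFX6. PPARGC1A, the coactivator of gluconeogenic genes in fasting, had 1 count in 1 library. Of 9 hexokinase partners at mitochondria, 1 was called higher and none lower (median -0.13). It was SLC25A5, an adenine nucleotide translocase of the inner membrane, at 608, 581 and 666 CPM in sgControl and 1086, 1107 and 1016 CPM in sgRFX6 (log2 fold change 0.79, SE 0.16, adjusted p = 0.0315 from edgeR). Its 50 nearest tested genes on chromosome X had nearly the same value, a median of 0.70, whereas that around NR1H4 was 0.25. Of all genes tested, 1.92% were called higher.

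**Figure D4:**
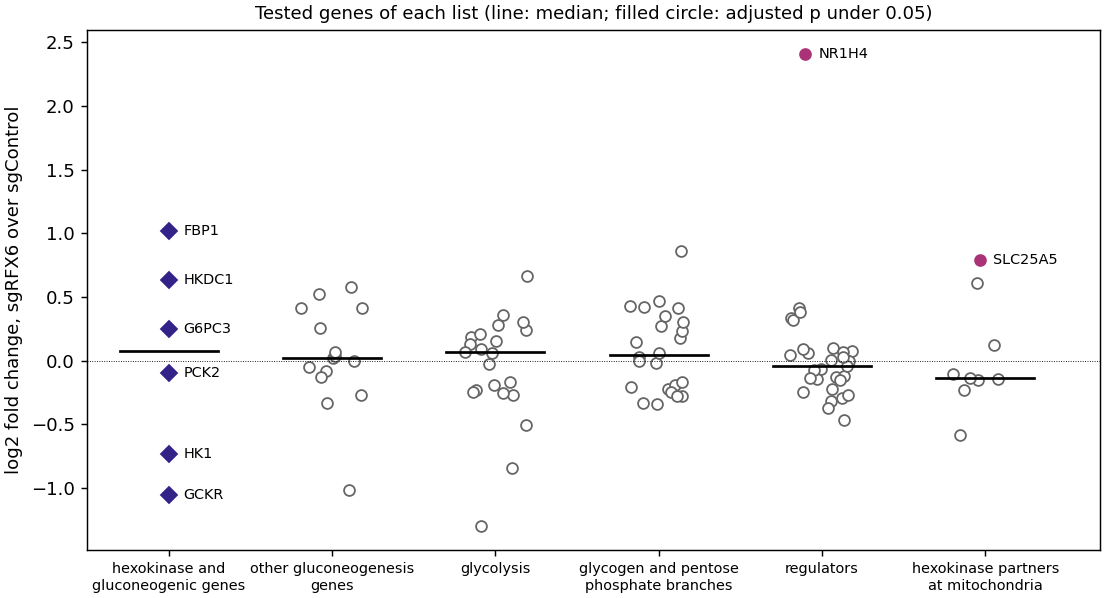
Log2 fold change of sgRFX6 over sgControl for the 6 tested members (diamonds) and the tested genes of 5 pathway lists (circles, filled where the adjusted p was under 0.05); the line is the median of each list. The list medians lie between -0.13 and 0.08, and NR1H4 (2.41) and SLC25A5 (0.79) are the called genes.

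The genes most like HK1 in their pattern over the 6 libraries were ARAP3, RERE and TEAD2, with a root mean square difference in centred log2 CPM of 0.0455, 0.0608 and 0.0760, out of 11318 genes compared. For HKDC1 they were TMEM186 (0.0306), CTTN (0.0439) and CPT1A (0.0577), and for GCKR they were GBGT1 (0.103), FOXA3 (0.141) and HLX (0.149). Those of G6PC3 were POLD2, STK32C and NDUFV1 (0.0285 to 0.0373), those of PCK2 EBF4, TRAPPC9 and RRAS (0.0628 to 0.0699), and those of FBP1 PLEKHG6, MMRN2 and RASGEF1A (0.142 to 0.161). The points share 6 libraries in 2 groups and their GC trends, so the likeness is a description only.
How often members were called is best read beside how often any gene was. No member was called with RLE scaling (3.77% of all genes called), with a robust dispersion (3.75%), without the filter on low counts (3.26%) or with the replicate number as a block (5.05%). With library size only (3.72%) the member called was HK1. With a minimum of 1 CPM in 3 libraries (3.69%), and with the regional median removed (3.16%), it was HKDC1. With the block and the GC correction together (5.07%) both were called. No member was called without sgControl library 1 (2.34%), sgControl library 3 (1.62%), sgRFX6 library 1 (1.66%) or sgRFX6 library 2 (2.35%). FBP1 was called without sgControl library 2 (3.05%), and HKDC1 without sgRFX6 library 3 (5.52%).

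**Figure D5:**
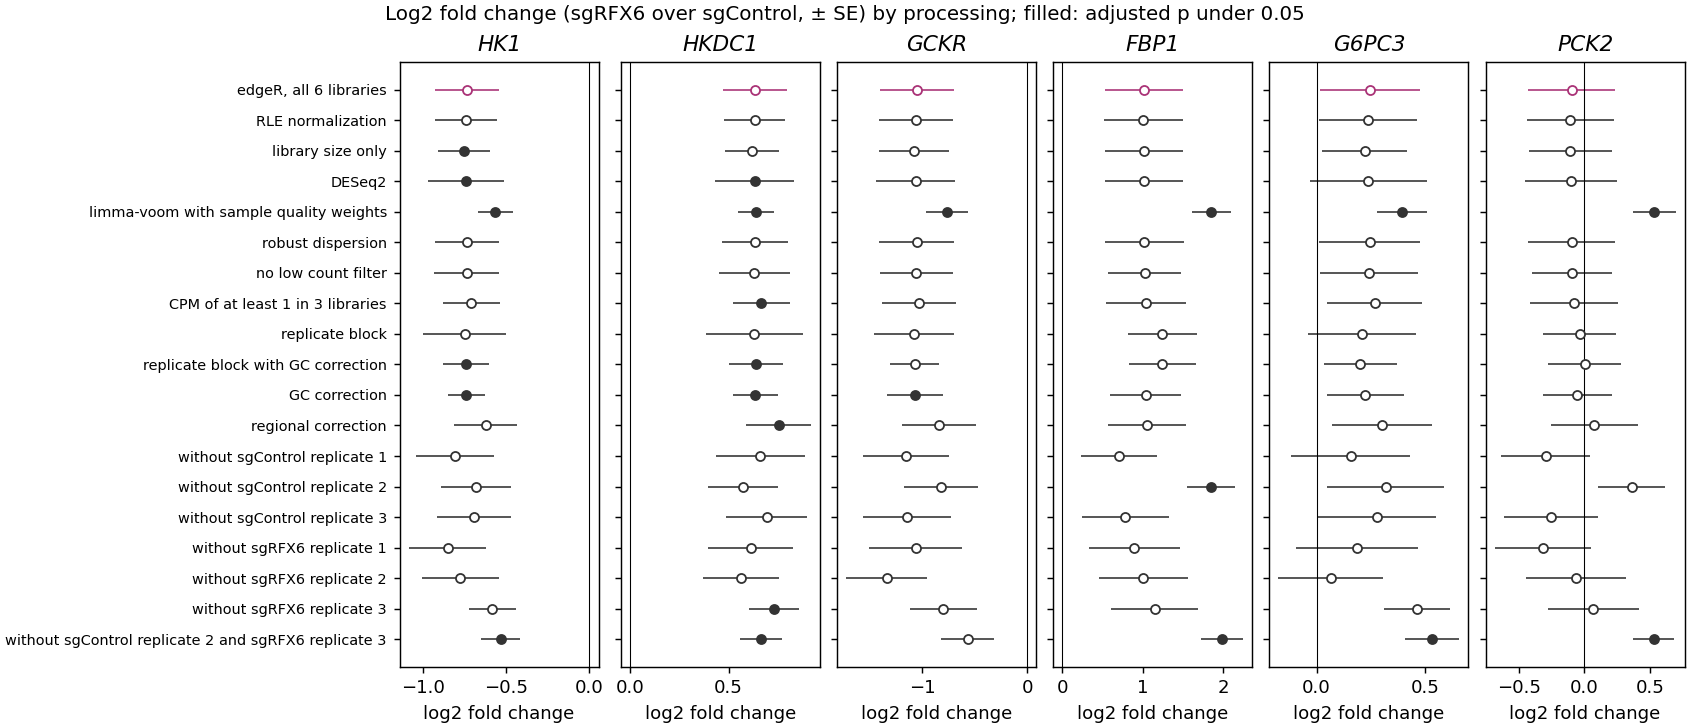
Log2 fold change of sgRFX6 over sgControl (horizontal axis, ± SE) of the 6 tested members with edgeR on all libraries (top) and under 18 alternatives, filled where the adjusted p was under 0.05. HK1 stays between -0.85 and -0.53 and HKDC1 between 0.56 and 0.75, while PCK2 lies on both sides of 0.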

How the data were processed

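RNA was isolated with Trizol and read by Illumina sequencing. The authors deposited whole-number read counts per gene without normalisation. Their processing notes name GRCh38. The aligner, counting program and annotation are not given in the sources used here. Columns named cas were taken as sgControl, the only control group, by replicate number, and columns named sg3 as sgRFX6. The only unnamed row, with up to 9.17e-05% of the counts, was left out.

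Counts were tested with edgeR 4.0.16 in R 4.3.3 (filterByExpr with minimum count 10 and minimum total 15, TMM scaling, quasi-likelihood F test without covariates, Benjamini-Hochberg adjustment over 12839 genes, threshold 0.05). Standard errors are the log2 fold change divided by the square root of F. Single members were also compared by a two-sided exact permutation test of CPM (scipy 1.17.1). Alternatives used DESeq2 1.42.0, limma 3.58.1, other scaling and filters, each library left out, the replicate number as a block, removal of GC trends (span 0.3, prior count 2) and of the median of the nearest 50 genes. Leaving out sgControl library 2 together with sgRFX6 library 3 was added after seeing the data. Positions, exon lengths and GC content came from GENCODE 29 (15407 rows matched by name, 271 by another symbol, 1043 not matched) and promoters from RefSeq. The SD and SE cover the spread between these libraries, and the floor of 3 counts covers counting error only.

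On simulated counts with 200 changed genes among 12915 tested for this comparison, edgeR recovered 29.4% of log2 changes of 1 and 90.1% of log2 changes of 2, and 4.2% of its calls were false. These counts held no GC trends, unlike the real libraries, so the shares do not cover the uncorrected test with such trends. With GC trends simulated and then corrected, the shares were 32.1%, 91.2% and 4.84%. Libraries of a group differed by more than sampling noise (chi-square per degree of freedom 16.9 to 122). The members, gene lists and tests were chosen with earlier results of these data known. Genes named are the members, RFX6, list genes under the threshold (at most 5 a list), overlapping and flanking genes, the 3 most alike in pattern (members and genes with a mean log2 CPM of at least 1), and others where said. Genes named for an unadjusted p, and SLC37A4, PC, ADPGK, G6PC and PPARGC1A, named for their role, were chosen after their values were seen. No protein sequences were used here.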

Additional observations from a re-analysis of the deposited data

How the results depend on the processing

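Over 18 alternatives HK1 kept its direction (-0.85 to -0.53) with adjusted p-values between 0.00205 and 0.233, and HKDC1 (0.56 to 0.75) between 0.000408 and 0.281. HK1 was called in 6 and HKDC1 in 8. By library size only, HK1 was called at -0.75 (1 member called); by DESeq2 HK1 was called at -0.74 and HKDC1 at 0.63 (2 members, 908 genes); by limma-voom at -0.57 and 0.64 (6 members, 3998 genes); with the GC correction at -0.74 and 0.63 (3 members, 1389 genes); with the replicate block and the GC correction at -0.74 and 0.64 (2 members). HKDC1 alone was called with at least 1 CPM in 3 libraries (0.67, 1 member) and with the regional correction (0.75, 1 member). Without sgControl library 2 and sgRFX6 library 3 the values were -0.53 and 0.67 (5 members, 3238 genes). With 1 library left out in turn, HK1 lay between -0.85 and -0.58 and HKDC1 between 0.56 and 0.73, the members called between 0 and 1, and the genes called between 212 and 718, against 480. All genes called numbered 306 without sgControl library 1 (117 up, 189 down), 212 without sgControl library 3 (85 up, 127 down), 216 without sgRFX6 library 1 (106 up, 110 down) and 307 without sgRFX6 library 2 (171 up, 136 down). PCK2 changed sign with limma-voom (0.53), with the replicate block and GC correction (0.0037), with the regional correction (0.0777), without sgControl library 2 (0.36), without sgRFX6 library 3 (0.07) and without both (0.53), and lay between -0.31 and 0.36 with 1 library left out. With the longest transcript as length, the HKDC1 share was 39.4% in sgControl and 62.7% in sgRFX6; without 1 library it was 45.1% to 48.9% and 68.7% to 71.0%. The cause of these changes was not tested, beyond the smaller number of libraries where some were left out. The replicate numbers did not pair the libraries: deviations of same-numbered libraries correlated at -0.406, 0.174 and -0.0867. Those of differently numbered libraries ran from -0.454 (sgControl 1 with sgRFX6 2) to 0.565 (sgControl 1 with sgRFX6 3). The replicate block does not take up such likeness between differently numbered libraries, and its source was not tested. With the replicate block alone 648 genes and 0 members were called (HK1 -0.75, adjusted p = 0.0803; HKDC1 0.63, adjusted p = 0.172, both from edgeR). HK2, HK3 and PCK1 had too few counts for a comparison.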
